A study of Mus musculus with 6 samples.

Results

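The natriuretic peptide family comprised 9 genes: the peptide genes Nppa, Nppb and Nppc, the receptor genes Npr1, Npr2 and Npr3, and the enzyme genes Corin, Furin and Mme. Members were the probe sets to which the platform annotation gives exactly 1 gene symbol equal to one of these names, which found 12 of 45037 probe sets. Npr3 had 3 probe sets, Mme had 2 and each other gene had 1. The names form a textbook family, but the family was chosen by what earlier results of these arrays showed, above all the log2 differences of Nppb and Nppa between the groups. The group differences of the members are therefore given as a description with their SE, and no test of them is claimed.

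The hearts came from a mouse line made to carry PR-M, a human form of the progesterone receptor found in mitochondria. RNA from the apex of the ventricles was hybridised to 6 Affymetrix Mouse Genome 430 2.0 arrays. The labels name 3 arrays PR-M expressing and the other 3 PR-M non-expressing, and both groups had received 2.5 mg progesterone in oil under the skin for 19 to 21 days. No group without progesterone was analysed here. The sources used here do not give the promoter of the transgene, the genotype of the non-expressing mice, or strain, sex and age. They also leave unsaid whether each array stands for its own animal, so the spread between replicates may be partly technical.

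Natriuretic peptides are hormones of the heart that lower blood pressure and blood volume. Stretched heart muscle makes atrial natriuretic peptide, encoded by Nppa, and brain natriuretic peptide, encoded by Nppb. In the adult, Nppa is expressed mainly in the atria, and both genes are known to be switched on in the ventricle under load. The peptides act through receptors that are guanylyl cyclases and make cyclic GMP, while a further receptor and the protease neprilysin clear them.

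The values are log2 expression, 1 per probe set and array. Array medians over all probe sets lay between 5.77 and 5.78, and Pearson correlations between arrays lay between 0.992 and 0.997. Markers of cardiac muscle were bright in all arrays, with means of 14.6 in both groups for Myh6, the main adult myosin heavy chain gene. Those of Myl2, the ventricular myosin light chain gene, were 14.7 in both. The highest value of any probe set was 14.8. Both genes thus lay near the top of the range, where a difference may not show. The title prefix of non-expressing replicate 1 differs from that of non-expressing replicates 2 and 3, and the expressing arrays share another prefix. No prefix held both groups, so the groups could not be compared within a prefix.

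Nppb and Nppa lie next to each other on mouse chromosome 4, with 0 protein-coding genes between them in the RefSeq gene order. Their promoters are shown because these neighbours had differences of opposite sign. The sequences are the 250 bases before the annotated start, from RefSeq on GRCm38.p6, on the plus strand at chr4:147985650-147985899 for Nppb and chr4:148000472-148000721 for Nppa. Capitals mark matches to GATAA, the core read by GATA factors, to GGAATG, the M-CAT element read by TEAD factors, to TNAAGTG, read by Nkx2-5, and to TATAAA, the TATA box, on either strand.
Nppb: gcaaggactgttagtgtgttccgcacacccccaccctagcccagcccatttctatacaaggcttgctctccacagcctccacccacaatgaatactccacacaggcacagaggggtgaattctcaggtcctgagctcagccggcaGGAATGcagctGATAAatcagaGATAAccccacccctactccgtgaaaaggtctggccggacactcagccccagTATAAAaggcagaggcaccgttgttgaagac
Nppa: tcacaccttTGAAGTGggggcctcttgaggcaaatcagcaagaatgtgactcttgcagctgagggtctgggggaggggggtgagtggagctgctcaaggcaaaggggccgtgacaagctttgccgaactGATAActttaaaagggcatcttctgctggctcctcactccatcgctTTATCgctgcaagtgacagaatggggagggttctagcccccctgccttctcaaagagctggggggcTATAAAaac

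Counted back from the start, GATAA began at -94 and -83 in Nppb. In Nppa it began at -121 and, on the reverse strand, at -75. GGAATG was in the Nppb window at -105, and TNAAGTG was in the Nppa window at -241. TATAAA began at -31 in Nppb and at -9 in Nppa. All these positions rest on the annotated starts, which were not checked here. None of these matches overlapped another. GATAA occurs in 22.6% of the 32851 windows of this length, GGAATG in 12.6%, TNAAGTG in 10.1% and TATAAA in 12.4%. All 9 members had a window in the RefSeq table, 12 windows in all. Among them GATAA was found in 2, those of Nppa and Nppb. GGAATG was also in a window of Mme, TNAAGTG in that of Furin, and TATAAA in those of Furin and Nppc. The palindrome read by the progesterone receptor and other steroid receptors, GNACA and TGTNC separated by 3 bases, was in 0 of the 12 member windows and in 0.387% of all windows. A match describes these letters and not a site in use.

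Of the peptide genes, Nppb was lower in the expressing arrays in every pairing of arrays, Nppa was split within both groups, and Nppc was dim. Nppb was at 11.14, 11.11 and 11.67 in the expressing arrays, against 13.12, 12.97 and 12.50 in the non-expressing arrays. The highest expressing array lay below the lowest non-expressing array. The means were 11.30 ± 0.32 and 12.87 ± 0.33 (SD, n = 3 each), a log2 difference of -1.56 (SE 0.19), or 2.95-fold lower.

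Nppa was at 9.07, 11.27 and 10.24 in the expressing arrays, against 10.74, 8.39 and 8.39 in the non-expressing arrays. Non-expressing replicate 1 was above expressing replicates 1 and 3, so the groups overlapped. The means were 10.20 ± 1.10 and 9.18 ± 1.36 (SD, n = 3 each), a difference of 1.02 (SE 0.70). This was smaller than the spread within either group. Without non-expressing replicate 1 the difference was 1.80, and without expressing replicate 2 it was 0.48.

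Nppc encodes C-type natriuretic peptide, made mainly by endothelial cells and in bone and brain. Its probe set read 4.98, 4.63 and 4.93 in the expressing arrays, against 5.04, 4.99 and 4.46 in the non-expressing arrays. All 6 values lay below the array medians, and the difference was 0.02 (SE 0.16). At this brightness a change of the gene may not be seen.

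**Figure D1:**
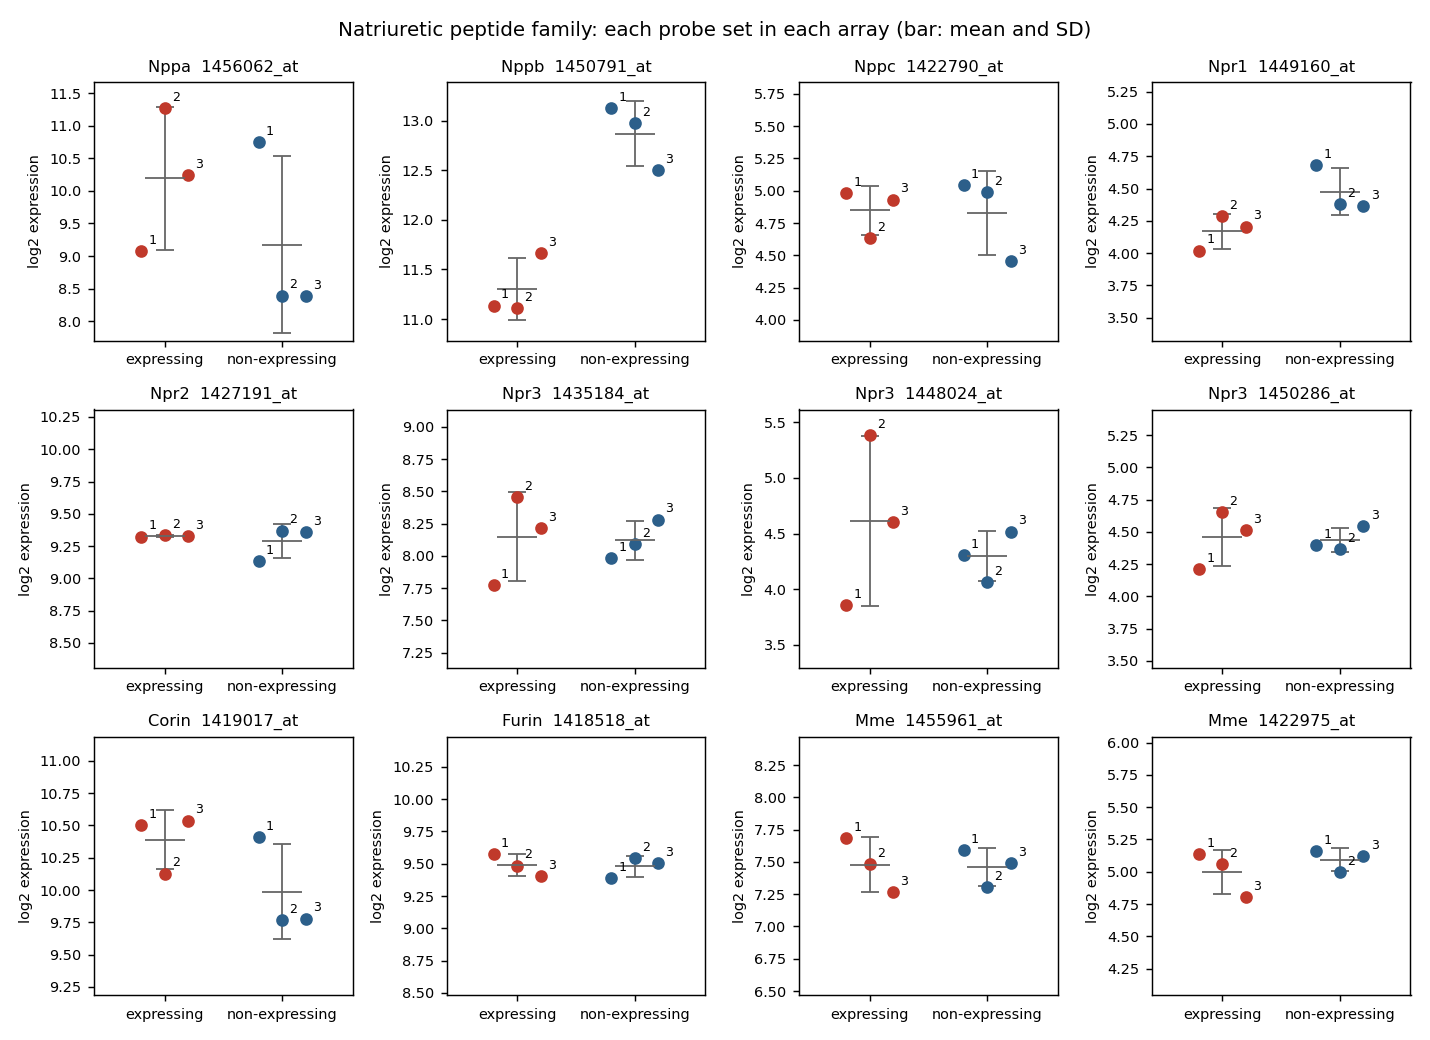
Each of the 12 probe sets of the family in each array, with log2 expression on the vertical axis, numbered replicates as points and bars for the mean and SD of a group. Nppb separates the groups, whereas Nppa spans 9.07 to 11.27 in the expressing arrays and 8.39 to 10.74 in the non-expressing arrays.

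Of the receptor genes, Npr2 and Npr3 had group differences smaller than their spread between arrays, and the dim Npr1 was lower in the expressing arrays without overlap. Npr2 encodes the guanylyl cyclase that answers to C-type natriuretic peptide. It was at 9.32, 9.34 and 9.33 in the expressing arrays, against 9.14, 9.37 and 9.36 in the non-expressing arrays, a difference of 0.04 (SE 0.09). The groups overlapped, and non-expressing replicate 1 was the lowest array.

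Npr1 encodes the guanylyl cyclase receptor of both cardiac peptides. Its probe set read 4.02, 4.28 and 4.21 in the expressing arrays, against 4.68, 4.38 and 4.36 in the non-expressing arrays. The groups did not overlap, with a difference of -0.31 (SE 0.11), 1.24-fold lower. The values were below the array medians of 5.77 to 5.78, so they may be near background and the fold is uncertain.

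Npr3 encodes the clearance receptor, which takes up and degrades all 3 peptides and in the heart is known from the endocardium. Its brightest probe set was at 7.77, 8.46 and 8.22 in the expressing arrays, against 7.98, 8.09 and 8.28 in the non-expressing arrays, a difference of 0.03 (SE 0.17). Of its dim probe sets, one lay between 3.85 and 5.38 in the expressing arrays and between 4.06 and 4.52 in the non-expressing arrays, a difference of 0.32 (SE 0.32). The other dim one differed by 0.02 (SE 0.12). The 3 probe sets had expressing replicate 2 as their highest array and expressing replicate 1 as their lowest.

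Of the enzymes, Corin had the largest difference and the groups overlapped. Corin encodes the membrane protease of heart muscle that cuts the Nppa precursor into its active form. It was at 10.51, 10.13 and 10.54 in the expressing arrays, against 10.41, 9.77 and 9.78 in the non-expressing arrays. Non-expressing replicate 1 stood apart from its group, within the range of the expressing arrays. The difference was 0.40 (SE 0.19), and 0.62 without non-expressing replicate 1.

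Furin encodes a proprotein convertase that processes the Nppb precursor among many others. It was at 9.58, 9.49 and 9.41 in the expressing arrays, against 9.39, 9.54 and 9.50 in the non-expressing arrays, a difference of 0.01 (SE 0.08). Its sign turned to -0.01 with quantile normalization, so it had no settled direction. Mme encodes neprilysin, the protease that degrades natriuretic peptides. The brighter of its probe sets was at 7.69, 7.49 and 7.26 in the expressing arrays, against 7.59, 7.30 and 7.49 in the non-expressing arrays. It differed by 0.02 (SE 0.12), and the dim probe set by -0.09 (SE 0.10), with overlap in both.

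Over the family, 7 of 9 genes had positive and 2 had negative differences, with a median of 0.02. Positive differences were found in 44% of all genes. The differences of Nppc, Npr2, Npr3, Furin and Mme took either sign as arrays were left out. All 18193 genes, with the brightest probe set standing for a gene, had a median difference of -0.02. None of the 9 members passed in the limma fit over all genes (adjusted p under 0.05), where 0.0220% of all genes did, 4 genes, all of them lower. With the prior estimated from all probe sets, 6 genes were higher and 6 lower. At an unadjusted p under 0.05 there were 2 members, Nppb and Npr1, beside 12.6% of all genes. Nppb alone crossed the threshold, as lower, when the prior was estimated from all probe sets, with array weights or at a threshold of 0.10. By probe set, 0 of 12 members passed, beside 0.0133% of all probe sets. There was no overlap between groups in 2 of 9 members, Nppb and Npr1, where 19.0% of all genes did not overlap. By size, Nppb was among the 7 genes, 0.0385% of all, that were lower by at least 1 log2 unit, and Nppa among the 14 genes, 0.0770%, that were higher by as much. Because the family was chosen with these differences known, nothing is read from these shares.

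**Figure D2:**
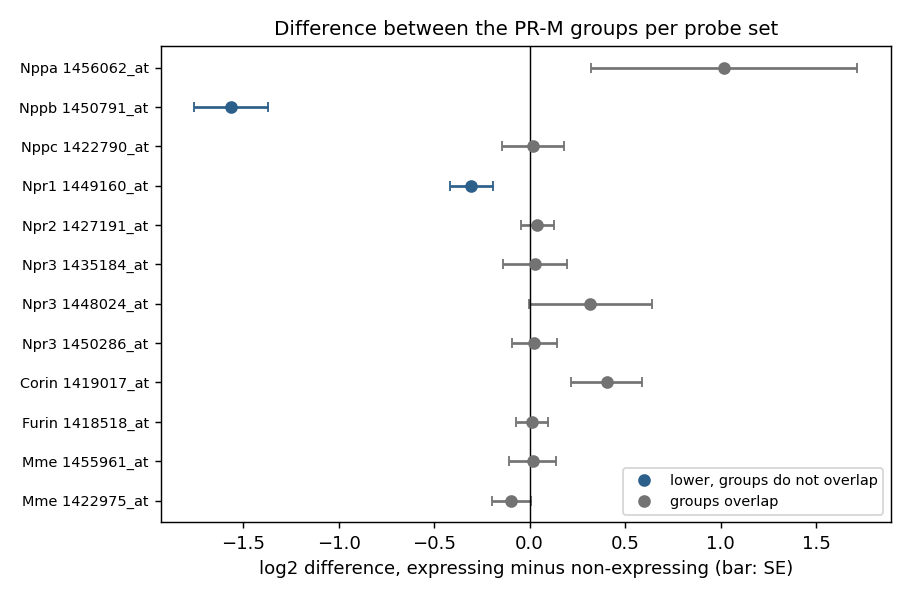
Log2 difference, expressing minus non-expressing, of the 12 probe sets, with bars for the SE. Nppb lies at -1.56, Npr1 at -0.31 and Nppa at 1.02 with an SE of 0.70, and the other probe sets lie between -0.09 and 0.40.

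The family was chosen above all by the differences of Nppb and Nppa, and such differences depend in part on the spread between arrays. The spread between arrays of the same group is therefore given as a description. Nppa had a pooled within-group SD of 1.24, and 4 of the 18193 genes had a larger one. At a similar level, within 0.5 log2 units, 1 of 1587 genes had a larger SD. Nppb had an SD of 0.32, with 433 genes above it. Corin had 0.31, with 525 genes above it, Npr3 0.27 and Nppc 0.27. The median of all genes was 0.11. Npr2 with 0.09 and Furin with 0.08 lay below that median, Mme with 0.18 and Npr1 with 0.16 above it. Nppa differed between arrays of 1 group by more than Nppb differed between the group means.

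**Figure D3:**
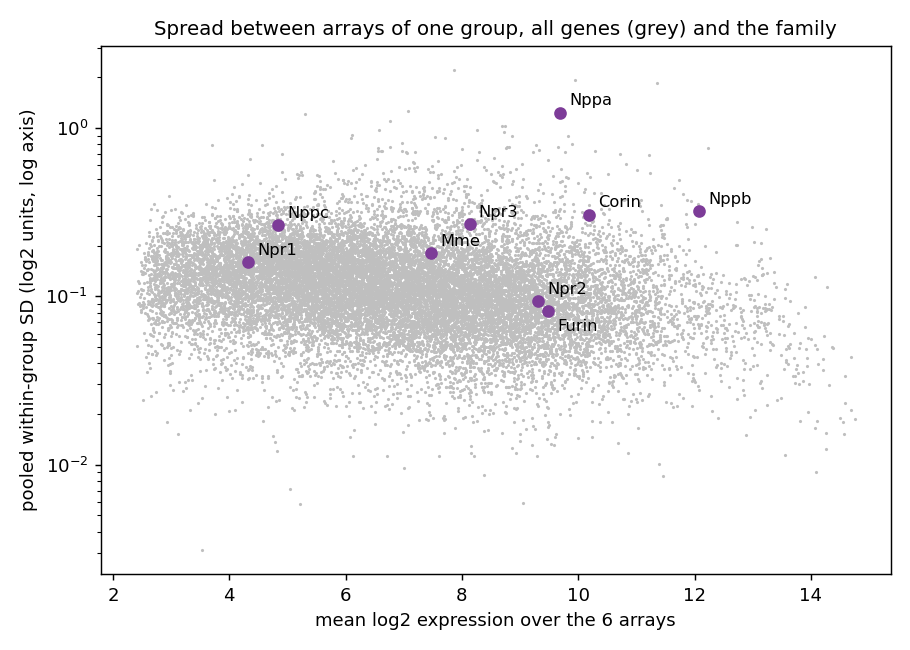
Pooled within-group SD (log axis) against the mean log2 expression of 18193 genes in grey and the 9 family members in purple. Nppa lies near the top of the cloud with an SD of 1.24, Nppb, Corin and Npr3 in its upper part, and Npr2 and Furin in its middle.

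Much of the Nppa spread in the non-expressing group came from replicate 1, the array with its own title prefix. It was above the mean of replicates 2 and 3 by 2.35 for Nppa, a distance that 4 of 18193 genes exceeded. The same distance was 0.64 for Corin, which 341 genes exceeded, 0.39 for Nppb, 0.32 for Nppc, 0.31 for Npr1 and 0.19 for Mme. It was -0.23 for Npr2, -0.20 for Npr3 and -0.13 for Furin. Replicate 1 was thus the highest or lowest array of its group in all 9 members, as it was in 77.8% of all genes. The part of the prefix in these distances was not tested.

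Genes of atrial muscle were measured beside the family, because Nppa is also an atrial gene and the samples are ventricular. Sln, which encodes the calcium pump inhibitor sarcolipin, was at 8.14, 10.24 and 8.38 in the expressing arrays, against 4.99, 5.17 and 4.94 in the non-expressing arrays. The atrial light chain gene Myl4 was at 9.99, 11.72 and 9.96 in the expressing arrays, against 6.57, 7.28 and 7.01 in the non-expressing arrays. The other atrial light chain gene, Myl7, was at 9.22, 10.96 and 9.79 in the expressing arrays, against 6.68, 6.26 and 6.66 in the non-expressing arrays. Expressing replicate 2, the highest array for Nppa, was also the highest for these 3 genes. Non-expressing replicate 1, at 10.74 for Nppa, was close to the rest of its group for Sln and Myl7 and the lowest array for Myl4.

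Not all atrial markers had these differences. Of the 11 measured, 6 were higher and 5 lower, with a median of 0.10. In limma over all genes 0 passed and 4 were at an unadjusted p under 0.05, beside 12.6% of all genes. The lowest adjusted p in limma were 0.0636 for Myl7 and 0.0693 for Sln and for Myl4. These 3 genes passed when the prior was estimated from all probe sets. Of the 11, 4 did not overlap between the groups, all higher in the expressing arrays, beside 8.16% of all genes. The fourth was Dkk3, a secreted protein gene enriched in atria, with a difference of 0.83 (adjusted p 0.274). The summed linear level of the list was 3700 to 8600 in the expressing arrays and 1860 to 2220 in the non-expressing arrays. Sln, Myl4 and Myl7 are part of these sums, which were not computed without them. The sums therefore do not describe the rest of the list. The 5 lower genes, Nr2f1, Kcna5, Gja5, Nr2f2 and Bmp10, had differences between -0.12 and -0.03, all with overlap. Bmp10, a growth factor gene of atrial muscle, was at 5.63 to 5.67 in the expressing arrays and 5.59 to 5.82 in the non-expressing arrays, close to the array medians. Gja5, the connexin gene of atria and conduction fibres, was below the medians in all arrays. In such bulk tissue, more atrial cells in a sample and more atrial RNA per cell cannot be told apart.

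Genes that respond to load include the classical companions of Nppb in the stressed ventricle. Of 16 measured, 12 were lower and 4 higher, with a median of -0.18, where 56% of all genes were lower. In limma over all genes 0 passed, and 5 were at an unadjusted p under 0.05, beside 12.6% of all genes. There was no overlap in 4 lower genes, beside 10.8% of all genes, and in 1 higher gene, beside 8.16%. Acta1, the skeletal actin gene, was at 10.89, 11.28 and 10.88 in the expressing arrays, against 12.86, 12.79 and 11.69 in the non-expressing arrays. Its difference was -1.43 (SE 0.29, limma adjusted p 0.184), and it passed without non-expressing replicate 3. Ankrd23, a muscle ankyrin repeat gene of the stretch response, differed by -0.46 (SE 0.07, adjusted p 0.127). The other lower genes were Myh7, the slow myosin heavy chain gene, with -0.48, and Ccn1, a matrix signalling gene, with -0.79. Postn, the matrix gene periostin, was the higher one, with 0.67. Ankrd1, another stretch gene, was named for its role and differed by -0.08 (SE 0.14), with overlap.

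**Figure D4:**
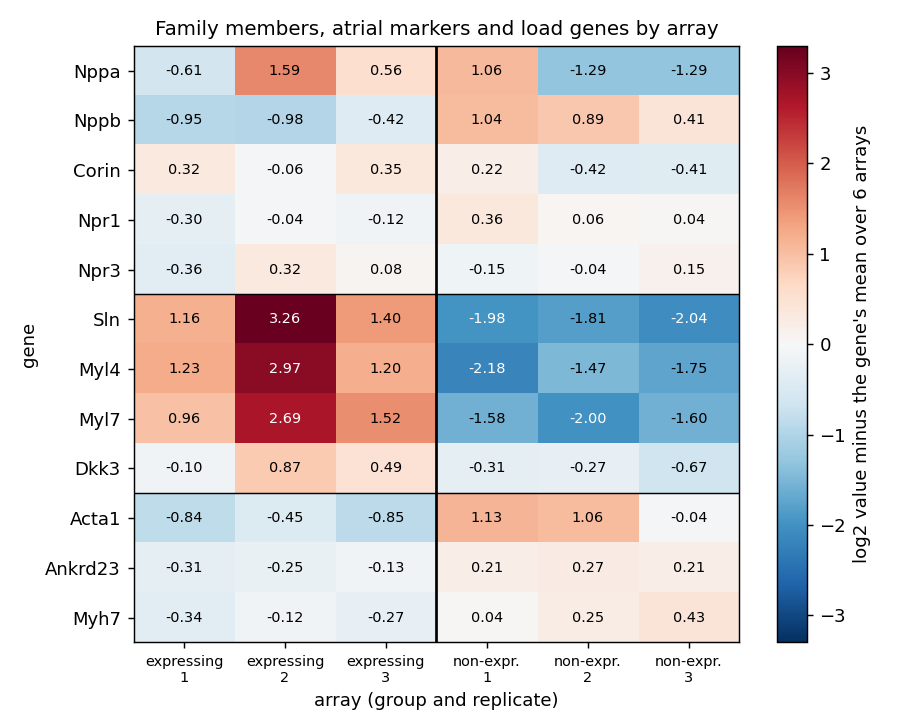
Log2 value minus the gene's mean over the 6 arrays, with arrays as columns, expressing left of non-expressing, and 12 genes as rows. Nppb and Acta1 separate the groups in the same direction, the atrial genes Sln, Myl4 and Myl7 in the opposite one, and Nppa and Corin are high in non-expressing replicate 1, where the atrial genes are low.

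Some markers of other cells and some signs of RNA quality separated the groups and others did not, and their part in the family's differences was not tested. Of 66 markers of all kinds, 0 passed in limma and 16 were at an unadjusted p under 0.05 (24.2%, beside 12.6% of all genes). The groups did not overlap in 24.2% of them, beside 19.0% of all genes. Of all genes, 44% were higher. Conduction system markers were higher in 5 of 6, with a median of 0.48, led by the calcium channel subunit gene Cacna2d2 (0.87, limma adjusted p 0.0906) and the transcription factor gene Tbx3 (0.44, adjusted p 0.184). Their summed linear level was 796 to 875 in the expressing arrays and 558 to 676 in the non-expressing arrays. All 8 fibroblast markers were higher, with a median of 0.21, led by the collagen gene Col3a1 (0.28, adjusted p 0.290) and the receptor gene Pdgfra (0.22, adjusted p 0.312), and sums of 25300 to 27900 in the expressing arrays and 21400 to 24000 in the non-expressing arrays. The 8 endothelial markers, among which the endocardial gene Npr3 could be placed, had a median of 0.03, with Vwf at 0.73 (adjusted p 0.299) and Pecam1 at 0.20 (adjusted p 0.347). Their sums were 4370 to 4470 in the expressing arrays and 3870 to 4350 in the non-expressing arrays. Of the endothelial markers 6 were higher and 2 lower. Vwf is part of these sums, which were not computed without it.

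The ventricular markers had a median of 0.05, with Irx5 at 0.16 (adjusted p 0.662) and Hey2 at 0.12 (adjusted p 0.681), both in limma. The smooth muscle list had a median of 0.13, led by Tagln (0.56, limma adjusted p 0.412) and Acta2 (0.48, adjusted p 0.463). The immune list had 0.03, led by Adgre1 (-0.16, adjusted p 0.573) and Lyz2 (0.28, adjusted p 0.639). The cardiac muscle list had 0.02, led by Ryr2 (0.35, adjusted p 0.549) and Tnnt2 (0.08, adjusted p 0.658). Most genes of the cardiac muscle list lay near the top of the range, where a difference may not show. Lists with 2 measured genes each were those of Schwann cells, with Mbp at 0.88 (adjusted p 0.127) and Sox10 at 0.05, of adipocytes, with Adipoq at 0.80 (adjusted p 0.437) and Lep at 0.18, and of red cells, with Alas2 at -0.48 (adjusted p 0.543) and Hba-a1 at 0.01. Hey2, Lep and Hba-a1 lay below the array medians in all arrays, where a change may not show. In the smooth muscle, immune, cardiac muscle, adipocyte and red cell lists the groups overlapped in every gene. The 18S ribosomal RNA control probe sets separated the groups, at an average of 8.31 for expressing arrays and 9.88 for non-expressing ones. For beta-actin, the 3′ probe set exceeded the 5′ one by 1.20 to 1.28 in the expressing arrays and by 1.30 to 1.43 in the non-expressing arrays, without overlap. The same measure of Gapdh overlapped, at 0.10 to 0.22 in the expressing arrays and 0.16 to 0.30 in the non-expressing arrays.

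Downstream of the receptors are genes that make, read and break down cyclic GMP. Of 31 measured genes of cyclic GMP signalling, 18 were higher, beside 44% of all genes, and 13 lower, with a median of 0.03. None of the 31 passed in limma over all genes, and 5 were at an unadjusted p under 0.05, beside 12.6% of all genes. The groups did not overlap in 3 higher genes, beside 8.16% of all genes, and in 2 lower genes, beside 10.8%. The lowest p belonged to Cnga1, a cyclic nucleotide-gated channel gene that was dim here (0.23, adjusted p 0.287), and Pde3b, a phosphodiesterase gene inhibited by cyclic GMP (0.31, adjusted p 0.333). Named for their role, Prkg1, the cyclic GMP-dependent kinase gene, differed by 0.17 (SE 0.09), and Pde9a, the phosphodiesterase gene for cyclic GMP of the natriuretic peptides, by 0.06 (SE 0.09), both with overlap. Pde9a lay below the array medians in all arrays, so a change of this gene may not be seen.

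Of 16 measured genes of peptide storage, processing and degradation, 8 were higher and 8 lower, with a median of -0.01. None passed in limma and 2 were at an unadjusted p under 0.05, beside 12.6% of all genes. The 2 were Scg3, a granin gene of secretory granules (-0.37, adjusted p 0.314), and Ece1, the endothelin-converting enzyme gene (0.18, adjusted p 0.370). Pcsk6, named for its role because its product activates corin, differed by 0.06 (SE 0.08), and Pam, a main membrane protein gene of atrial granules, by -0.13 (SE 0.10).

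Of 32 measured transcription factor genes that act on the Nppa and Nppb promoters, 21 were higher, beside 44% of all genes, and 11 lower. Their median was 0.05. None of the 32 passed in limma and 6 were at an unadjusted p under 0.05, beside 12.6% of all genes. The groups did not overlap in 6 higher genes, beside 8.16% of all genes, and in 1 lower gene, beside 10.8%. The lowest p belonged to Tbx3, a repressor of working muscle genes in conduction tissue (0.44, adjusted p 0.184), and Gata6, a GATA factor gene (0.29, adjusted p 0.296). Gata4, whose product reads the GATAA core shown above, was named for its role and differed by 0.10 (SE 0.09). Nkx2-5 differed by -0.07 (SE 0.08), both with overlap. The 1 lower gene was Tead1, whose product reads the M-CAT element, with a difference of -0.10 (SE 0.07, adjusted p 0.578). It was singled out only once its values were known.

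The last list held 10 measured genes of other peptide systems that act on blood pressure. They were genes of the renin-angiotensin and endothelin systems, and Adm, Calcrl and Ramp2 for adrenomedullin and parts of its receptor. Of the 10, 7 were lower, beside 56% of all genes, and 3, Agtr1a, Calcrl and Ramp2, were higher, with a median of -0.10. None of the 10 passed in limma, and 0 were at an unadjusted p under 0.05, beside 12.6% of all genes. The lowest p belonged to the angiotensin receptor genes Agtr2 (-0.21, adjusted p 0.403) and Agtr1b (-0.17, adjusted p 0.506), both dim. Over the 5 lists, 103 different genes had a median of 0.01. Of these, 17.5% were at an unadjusted p under 0.05, beside 12.6% of all genes. The groups did not overlap in 20.4% of them, beside 19.0% of all genes.

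**Figure D5:**
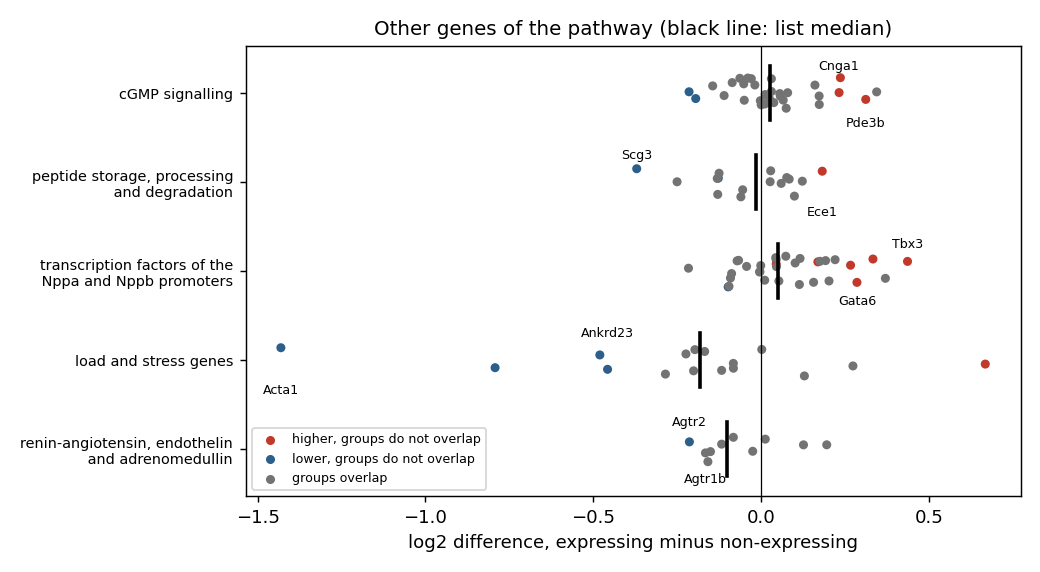
Log2 difference, expressing minus non-expressing, of 103 other genes of the pathway in 5 lists, with a black line for the median of a list and the 2 genes of lowest p named. The medians lie between -0.18 for the load genes and 0.05 for the transcription factors, and no gene passed over all genes.

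The likeness of profiles was measured as the mean absolute difference between log2 values centred on each gene's mean over the 6 arrays, against all other 18192 genes. The group difference is part of these profiles, so they are a description. Nearest to Nppb were Pabpn1, which encodes a nuclear poly(A)-binding protein, at 0.29, Acta1 at 0.30, Cnksr1, a scaffold protein gene, at 0.32, Tnfrsf12a, which encodes a receptor of the TNF receptor family, at 0.32 and Ampd2, an AMP deaminase gene, at 0.33. The profile of Nppb itself deviated from its mean by 0.78 on average. Tnfrsf12a was at 9.94, 9.87 and 10.17 in the expressing arrays, against 10.54, 11.34 and 10.83 in the non-expressing arrays.

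Nearest to Nppa were the amylase gene Amy1 at 0.54, the muscle and fat carbonic anhydrase gene Car3 at 0.56, the fatty acid desaturase gene Scd1 at 0.60, C1qtnf6 at 0.60 and the tachykinin gene Tac1 at 0.62. Nppa itself deviated by 1.07 on average, so no gene followed it closely. Amy1 was at 6.61, 6.12 and 6.71 in the expressing arrays, against 7.10, 5.05 and 5.01 in the non-expressing arrays, and shared the high non-expressing replicate 1. Car3 was at 8.22, 10.30 and 9.39 in the expressing arrays, against 8.20, 8.54 and 7.96 in the non-expressing arrays, and shared the order of the expressing arrays. Within the family Corin was nearest to Nppa, at 0.90, with 1.28% of all genes nearer. Nppb and Nppa were 1.30 apart, with 99.7% of genes nearer to Nppa than Nppb was.

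The neighbours of the gene pair on chromosome 4 were smaller in their differences. Plod1, a collagen-modifying enzyme gene, was at 9.32, 9.34 and 9.39 in the expressing arrays, against 9.65, 9.71 and 9.66 in the non-expressing arrays. It differed by -0.32 (SE 0.06, limma adjusted p 0.184), without overlap. On the same side, 2510039O18Rik differed by -0.26 (SE 0.09, adjusted p 0.335), also without overlap. On the Nppa side, the chloride transporter gene Clcn6 differed by -0.15 (SE 0.10, adjusted p 0.546), with overlap. Of these neighbours 3 lay in the direction of Nppb, where 56% of all genes were lower, and 0 in that of Nppa. None of the 3 passed. Of all genes, 10.8% were lower without overlap, and no pattern of the locus is read from these 3. The next gene on the Nppa side was not analysed here.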

How the data were processed

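Log2 values of each probe set in each array are used as the authors deposited them. Per the submitters' processing notes, RMA and Partek 6.6 are named without a role or order, and the sources used here give no further settings. From 500 ng of total RNA, labelled RNA was made and hybridised, per the labels' protocols. Values span 2.10 to 14.8, which is the basis for taking them as log2. Ranked values differ between arrays by no more than 0.155, so changes shared by all genes cannot be seen.

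A total of 64 control probe sets was left out of the tests. Of 45037 probe sets, 34945 have 1 gene symbol, 932 several and 9160 none, in the platform annotation. All 9 member symbols were unchanged in the RefSeq table. Groups were compared with lmFit and eBayes of limma 3.58.1 (R 4.3.3, two-sided, 3.83 prior and 4 residual degrees of freedom over 18193 genes, Benjamini-Hochberg). The SE of members comes from the fit over all probe sets. The fit was tested on simulated data. Members, lists and tests were chosen with earlier results of these data known. Named were all members, the 2 genes of lowest p in each list, Sln, Myl4 and Myl7, the 5 likest profiles and the 2 nearest genes on each side. Other genes are said to be named for their role or after their values were seen. Alternatives were other scalings, a dim filter, other priors and weights, a random block for the title prefix (statmod 1.5.0), other probe set choices, another threshold and leaving out each array.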

Additional observations from a re-analysis of the deposited data

How the results depend on the processing

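No paired analysis was possible because the titles of the groups share only 1 number and no label ties arrays into pairs. The precision rests on 3 arrays in each group, and 5 of 12 member probe sets lay below every array median, where changes may not show. The log2 difference of Nppb was between -1.58 with cyclic loess and -1.47 with array weights under the planned settings, and between -1.75 and -1.43 with 1 array left out. That of Nppa was between 0.94 with a random block for the title prefix and 1.76 with array weights, and between 0.48, leaving out expressing replicate 2, and 1.80, leaving out non-expressing replicate 1. Differences of Nppc, Npr2, Npr3, Furin and Mme lay near 0 and took either sign as arrays were left out. The number of members called was 0 as reported and with each array left out. It was 1, Nppb, with array weights, at an adjusted p threshold of 0.10, and with the prior from all probe sets, an alternative chosen after seeing the data. The number of genes called over all genes was 4. It was 11 with the filter on dim probe sets, which left 12035 genes, 17 with an intensity trend and robust prior, 26 with array weights, 1 with probe sets averaged per gene and 2 without probe sets ending in _x_at or _s_at. It was 26 at the threshold of 0.10 and 12 with the prior from all probe sets. The 4 genes were all lower, but no such direction held under others of these settings: 6 were higher and 5 lower with the filter, 10 and 7 with the trend and robust prior, 14 and 12 with array weights and 15 and 11 at 0.10. With 1 array left out it was between 0, without non-expressing replicate 2, and 11, without non-expressing replicate 1. The number of markers called was 0. It was 1, Myl7, with the filter on dim probe sets, 3 with the prior from all probe sets, 4 with array weights or at the threshold of 0.10, and between 0 and 3 with 1 array left out. The number of pathway genes called was 0 under the planned settings that kept all arrays and between 0 and 1 with 1 array left out, Acta1 without non-expressing replicate 3. Nppc and Npr1 were too dim for the filter and have no value under it. The cause of these moves was not tested.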
